A study of Homo sapiens with 12 samples.

Results

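Complex I (NADH:ubiquinone oxidoreductase) was represented by 48 of the 58735 genes in the count table. The members were the protein-coding genes whose GENCODE 29 symbol starts with NDUFA, NDUFB, NDUFC, NDUFS or NDUFV, comprising 40 genes counted as subunits and 8 assembly factors (NDUFAF symbols). The rule uses symbols and no measured value, but it was set with earlier results of these data known. Of the 48, 47 passed the filter on low counts and were tested. The remaining one, the readthrough gene NDUFC2-KCTD14, had 0 counts in all 12 libraries and was not tested.

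The libraries came from ES2 cells, a human ovarian carcinoma line, in an FDX2-inducible knockout (FDX2-iKO) form. All 4 conditions shared the same engineering, namely loss of the endogenous FDX2 gene by Cas9 together with a tetracycline-controlled, editing-resistant FDX2 cDNA that is expressed in doxycycline (Doxy). FDX2 is a mitochondrial ferredoxin needed to build iron-sulfur (Fe-S) clusters. Each condition had 3 libraries: 20% O2 + Doxy and 20% O2 wo Doxy after 6 days at 20% O2, and 3% O2 + Doxy and 3% O2 wo Doxy after 4 days at 20% O2 followed by 3 days at 3% O2. Libraries wo (without) Doxy are the FDX2-depleted ones. The 3% O2 libraries were therefore also cultured longer, and oxygen and culture time cannot be told apart. The iKO line was a clone (clone #1 by the default of the study's methods), and the libraries carry no clone label. The study calls its replicates biological.

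Complex I oxidizes NADH and passes the electrons along a chain of Fe-S clusters to ubiquinone, while its membrane arm pumps protons. The matrix arm holds the flavin and all the Fe-S clusters in core subunits, and many accessory subunits surround the nuclear and mitochondrially encoded core. Assembly factors help to build the complex and are absent from the finished enzyme.

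Total counts ran from 24958386 to 34313637 per library, of which the members took 0.211% to 0.260%. FDX2 itself had 2 to 12 counts per library with Doxy and 4 to 13 without it. In the annotation 70.9% of its exon bases also belong to the same-strand gene AC011511.1, so these counts do not check the Doxy labels. Of the epithelial and ovarian carcinoma markers, KRT18, KRT8 and PAX8 passed the filter, with PAX8 at a mean of 6.07 to 15.1 CPM (counts scaled to library size) by condition, whereas WT1, EPCAM and MUC16 had at most 8 counts in any library. Of 7 markers of leukocytes, endothelium and hepatocytes only CDH5 passed, at mean levels of 24.7 to 45.1 CPM, and the other 6 (PTPRC, CD3E, CD14, PECAM1, ALB and APOA1) had at most 6 counts in any library. In 3 conditions 1 library stood apart, with a mean chi-square per gene against both other replicates over 3 times that between those replicates. These were 20% O2 + Doxy replicate 1 (19.65 and 37.53 against 5.029), 3% O2 + Doxy replicate 3 (27.95 and 34 against 2.468) and 3% O2 wo Doxy replicate 1 (30.71 and 33.13 against 8.368). The 3 libraries of 20% O2 wo Doxy were the most alike, at 2.51 to 3.26.

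The libraries also differed in how their levels followed transcript GC content. Over 11120 expressed genes, Spearman's rho between a library's deviation from the mean and transcript GC content ran from -0.56 to 0.70, and it was 0.60 in 20% O2 + Doxy replicate 1, 0.62 in 3% O2 + Doxy replicate 3, 0.70 in 3% O2 wo Doxy replicate 2 and -0.46 to -0.28 in the 3 libraries of 20% O2 wo Doxy. The same shift ran through the comparisons, with a rho between log2 fold change and GC of 0.53 over all these genes and 0.54 over the 47 members for 3% against 20% O2 without Doxy. These are descriptions across genes that share the same libraries. Because the members span 36.7% to 65.6% GC, each comparison of the members below is also given after removal of the GC trend of each library. The trend followed condition in part, being below 0 in all libraries of 20% O2 wo Doxy and 0.0982 to 0.703 in those of 3% O2 wo Doxy. A technical tilt and a change of expression related to GC cannot be told apart here, and the correction can remove either.

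NDUFB7 and NDUFB5 lie near the ends of that range, with exons of 65.0% and 39.3% GC, and both recur in the results. The first 90 bases of the longest coding exon of each, with G and C in capitals, make the contrast visible. The NDUFB7 stretch lies in exon 2 (chr19:14566844-14566933, minus strand, GRCh38) and is 64.4% GC, and the NDUFB5 stretch lies in exon 7 (chr3:179623920-179624009, plus strand) and is 42.2% GC.
NDUFB7: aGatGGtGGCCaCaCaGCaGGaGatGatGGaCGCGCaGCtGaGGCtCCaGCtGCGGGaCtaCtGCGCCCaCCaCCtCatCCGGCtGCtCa
NDUFB5: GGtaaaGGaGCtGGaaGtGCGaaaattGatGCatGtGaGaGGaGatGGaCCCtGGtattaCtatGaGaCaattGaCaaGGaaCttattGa

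Levels were compared between members as TPM (counts scaled to library size and to the summed length of all annotated exons of a gene). That length ran from 531 bases in NDUFB7 to 12268 bases in NDUFS1 and is not the length of the transcript in use. The order therefore also depends on the annotation. In 20% O2 + Doxy libraries NDUFS5, a small accessory subunit facing the intermembrane space, was highest at 878 ± 45.7 TPM (SD, n = 3). NDUFB7 followed at 351 ± 40.7 TPM, NDUFA8 at 272 ± 19.9 TPM and NDUFB10 at 225 ± 22.0 TPM, each with a CHCH fold like NDUFS5. NDUFB11 and NDUFS6, next at 185 ± 13.4 and 184 ± 7.34 TPM, did not differ beyond their spread. At the low end stood NDUFA9 (5.15 ± 0.347 TPM), NDUFA13 (4.86 ± 1.30 TPM), NDUFV2 (3.84 ± 0.273 TPM), NDUFA7 (2.82 ± 1.10 TPM) and NDUFA4L2 (1.32 ± 0.451 TPM), and NDUFA9 and NDUFA13 lay within each other's spread. The lower end of this order has a limit in the counting. In 7 members over 50% of the coding bases lie inside another annotated gene, and the 6 of these that were tested held ranks 37, 39 and 43 to 46 of 48 in the 20% O2 + Doxy libraries. They were NDUFB8, NDUFC2, NDUFA9, NDUFA13, NDUFV2 and NDUFA7, and their low levels were not tested against the way shared reads were counted.

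**Figure D1:**
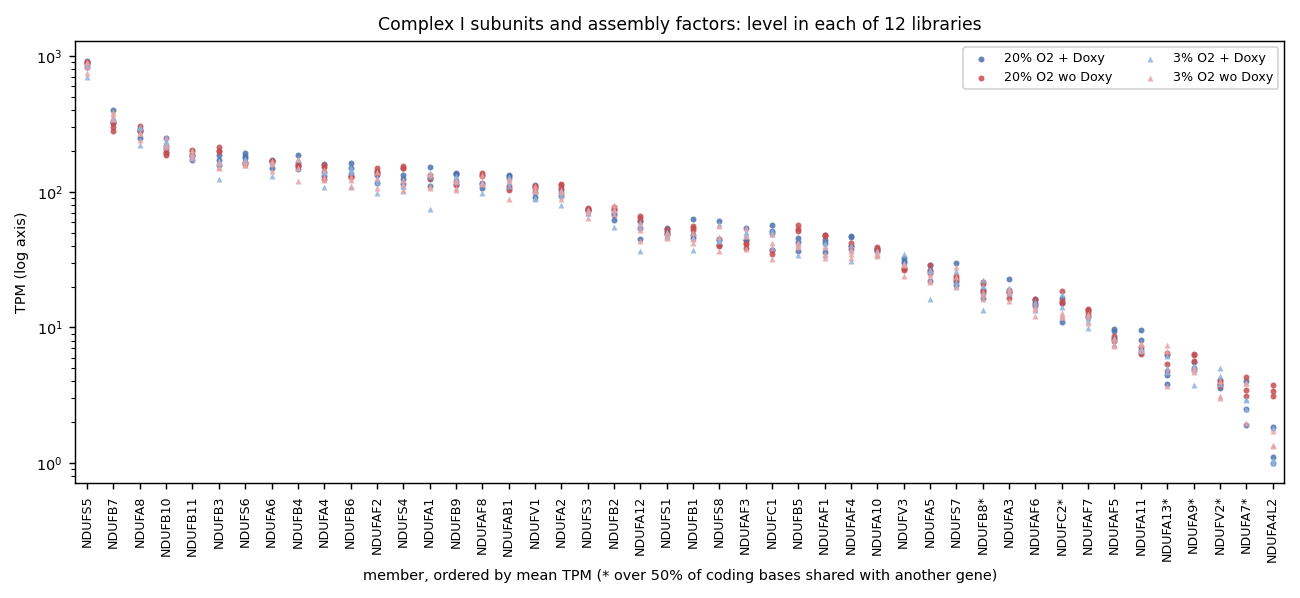
TPM of 46 of the 47 tested members (log axis) in each of 12 libraries, ordered by the mean over the 12 libraries, with circles for 20% O2, triangles for 3% O2, blue for + Doxy and red for wo Doxy. Levels run from NDUFS5, at a mean of 852 TPM over all libraries, to NDUFA4L2, at 1.88 TPM, and members marked * share over 50% of their coding bases with another gene.

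NDUFV2, a core subunit with an Fe-S cluster, carries this limit and a further one. Of its coding bases 84.7% lie inside AP005263.1 on the same strand, and it collected 57 to 112 counts per library, 1005 in all, against 682 for its processed pseudogene NDUFV2P1. Over 693 aligned bases the transcripts of the gene and the pseudogene are 98.3% identical, with 12 differing bases. The stretch below is 90 bases from exon 6 of NDUFV2 (chr18:9122513-9122602, plus strand, GRCh38) and its counterpart in NDUFV2P1 (chr19:53224331-53224420, minus strand). It has 2 differing bases, in capitals. Inside the alignment only such bases tell reads of the gene and the pseudogene apart. The transcripts are 942 and 907 bases long, and bases outside the alignment can also tell them apart.
NDUFV2: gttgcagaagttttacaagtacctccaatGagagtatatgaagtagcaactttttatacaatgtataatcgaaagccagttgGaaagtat
NDUFV2P1: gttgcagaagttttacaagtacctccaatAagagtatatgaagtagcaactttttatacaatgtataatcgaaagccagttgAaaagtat

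The first comparison asked how the members responded to FDX2 loss at 20% O2, as 20% O2 wo Doxy against + Doxy libraries. A fold change is given on the log2 scale with its standard error. Calls were made with the quasi-likelihood test of edgeR at a Benjamini-Hochberg adjusted p below 0.05, with the adjustment over the 16891 genes tested. Of the membrane arm NDUFC1 and NDUFB9 fell, as did the acyl carrier protein NDUFAB1 and the matrix arm subunit NDUFV3, by -0.62 to -0.28, whereas NDUFA4L2 rose by 1.29. Of 47 members 15 were called, 4 higher and 11 lower, beside 35.3% of all tested genes (17.6% higher and 17.7% lower). The median log2 fold change was -0.04 for the members and 0.01 for all genes. Replicates of the conditions did not overlap for 23 members, where 52.3% of all genes had no overlap. For all 32 members not called, the 95% interval lay inside a 2-fold change in either direction, and for 29 of them inside 1.5-fold. In the same comparison the markers KRT18 (-0.55) and VIM (-0.49) fell and CDH2 (0.29) rose, and their part in the members' values was not tested.

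After GC correction 15 members were again called, now 6 higher and 9 lower, beside 45.9% of all genes, and 11 members were shared between both sets. NDUFA11, NDUFB7, NDUFB10 and NDUFS6 lost the call, and NDUFV1, NDUFS7, NDUFS8 and NDUFAF4 gained it. Without the 3 libraries that stood apart, 22 members were called (4 higher, 18 lower, 48.2% of all genes), of which 14 were among the 15, and the median was -0.12. Leaving out discordant libraries narrows the spread by construction. Of the fits without any 1 library, the one without 20% O2 wo Doxy replicate 1 called the fewest members, 8. The members called in all 18 alternative fits, where each gave an adjusted p, were NDUFC1, NDUFAB1, NDUFB9 and NDUFV3, all lower, and NDUFA4L2, higher.

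**Figure D2:**
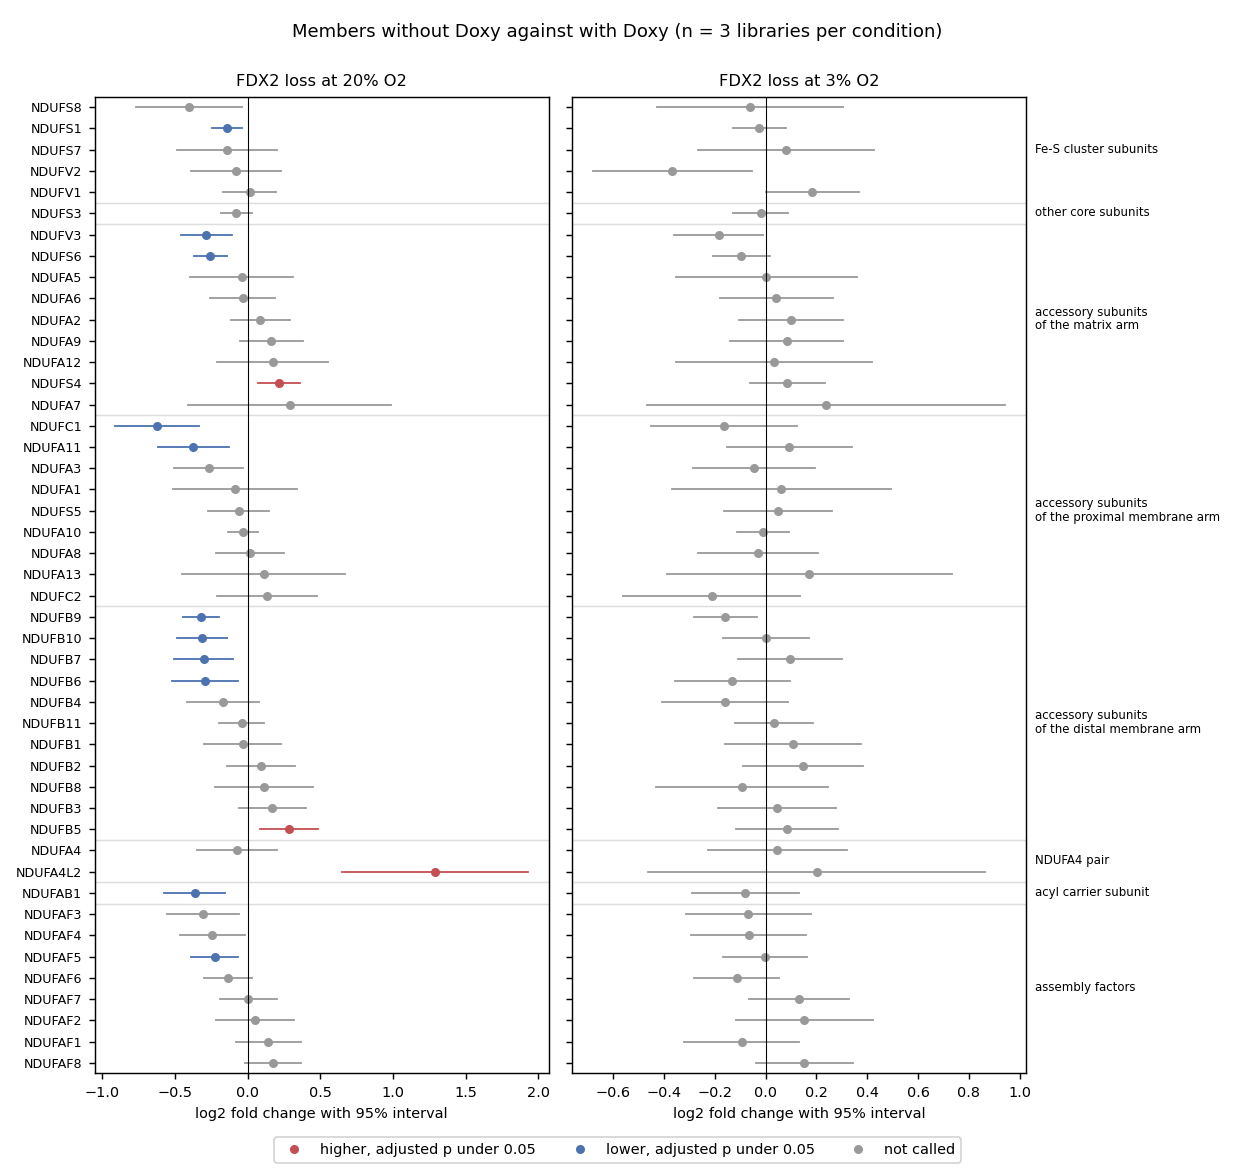
Log2 fold change with its 95% interval for 46 of the 47 members, without against with Doxy, at 20% O2 (left) and 3% O2 (right), grouped by role. At 20% O2 14 of the members drawn are coloured as called, and the values run from -0.62 (NDUFC1) to 1.29 (NDUFA4L2), whereas at 3% O2 none is called.

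Among the 5 core subunits that bind the Fe-S clusters, 1 was called (20%, beside 35.3% of all genes). After GC correction NDUFS1 and NDUFS8 were called lower and NDUFV1 and NDUFS7 higher, beside 45.9% of all genes called. NDUFS1, the largest core subunit, was at 170, 178 and 173 CPM with Doxy and 154, 155 and 164 CPM without it. All 3 depleted libraries were lower, by -0.14 ± 0.05 (edgeR adjusted p = 0.0368), and the call was kept after GC correction at -0.15 but lost in 9 of 18 alternative fits. NDUFV1, which binds the flavin that accepts electrons from NADH, was at 155, 134 and 126 CPM against 139, 144 and 137 CPM. These groups overlapped, with a log2 fold change of 0.01 and a 95% interval of -0.17 to 0.20. After GC correction NDUFV1 was called higher, at 0.21 (edgeR adjusted p = 0.0214).

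NDUFS8, whose clusters lie near the end of the electron path, was at 75.7, 54.2 and 54.0 CPM with Doxy and 46.1, 47.2 and 45.9 CPM without it. Every depleted library was below every other one, and the highest value came from replicate 1, which was tilted to GC-rich transcripts. The difference of -0.40 ± 0.17 was not called (edgeR adjusted p = 0.0845) but was called at -0.14 after GC correction (edgeR adjusted p = 0.0222). NDUFS7, which holds the last cluster before ubiquinone, was at 61.9, 43.1 and 42.0 CPM with Doxy and 44.3, 46.8 and 42.4 CPM without it. Its groups overlapped, and the sign of its change depended on the GC correction, being -0.14 ± 0.16 without it and 0.19 with it. Its coding sequence is shared over 48.5% with antisense genes. NDUFV2 was at 2.65, 2.75 and 3.03 CPM against 2.79, 2.59 and 2.60 CPM, with an interval of -0.39 to 0.23. With the NDUFV2P1 counts added to it the difference was -0.42 and was called (edgeR adjusted p = 0.0196).

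Of 9 accessory subunits of the matrix arm 3 were called (33.3%, beside 35.3% of all genes), 2 of them lower. NDUFV3, a small subunit of the NADH-oxidizing module, was at 56.3, 50.5 and 53.0 CPM with Doxy and 43.1, 44.3 and 44.0 CPM without it, a difference of -0.28 ± 0.08 (edgeR adjusted p = 0.0177). NDUFS6, a zinc-binding subunit, was lower by -0.26 ± 0.05 (edgeR adjusted p = 0.00275) and by -0.15 after GC correction, where it was no longer called (edgeR adjusted p = 0.159). NDUFS4, mutated in Leigh syndrome and needed for a stable NADH-binding module, was higher, at 36.4, 38.7 and 42.2 CPM with Doxy and 44.9, 46.8 and 44.6 CPM without it. That difference was 0.22 ± 0.07 (edgeR adjusted p = 0.0266), and 11 of 18 alternative fits kept the call.

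NDUFAB1, the mitochondrial acyl carrier protein, is both a complex I subunit and a partner of the Fe-S cluster assembly machinery. Its level was 57.0, 53.5 and 57.8 CPM with Doxy and 45.1, 44.1 and 41.6 CPM without it. The groups were well separated, with a difference of -0.36 ± 0.10 (edgeR adjusted p = 0.0126) that stayed between -0.40 and -0.35 in every alternative fit.

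Of 20 accessory members of the membrane arm 7 were called (35%, beside 35.3% of all genes), 6 of them lower. NDUFC1, a small subunit of the proximal membrane arm, showed the largest decrease of any member, at 26.3, 26.8 and 30.0 CPM with Doxy and 18.3, 18.5 and 17.2 CPM without it. Every depleted library lay below every other, by -0.62 ± 0.13 or 1.54-fold (edgeR adjusted p = 0.00366), and the range over alternative fits was -0.70 to -0.56. NDUFA11, a membrane-embedded subunit, followed at 12.7, 10.5 and 8.91 CPM against 7.99, 8.0 and 8.74 CPM. Its groups were nearly touching, the difference was -0.37 ± 0.11 (edgeR adjusted p = 0.0225), and 6 of 18 alternative fits, among them those with GC correction, lost the call.

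In the distal membrane arm 5 of 11 members were called (45.5%, beside 35.3% of all genes). NDUFB9, an LYR-motif subunit that binds acyl carrier protein, was at 152, 148 and 152 CPM with Doxy and 117, 127 and 118 CPM without it. The separation was wide against the spread, at -0.32 ± 0.06 (edgeR adjusted p = 0.00119). NDUFB10, NDUFB7 and NDUFB6 were also lower, by -0.31 ± 0.08, -0.30 ± 0.09 and -0.29 ± 0.10 (edgeR adjusted p = 0.00897, 0.0270 and 0.0452). Of the 6 fits that left out a library, 0, 3 and 5 lost these calls, in the same order. The GC-rich NDUFB7, shown above, was at 57.6, 47.3 and 46.3 CPM against 40.8, 44.3 and 37.5 CPM, and its difference came to -0.00 after GC correction.

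NDUFB5, the GC-poor counterpart, was higher, at 58.4, 66.7 and 72.9 CPM with Doxy and 80.0, 77.7 and 83.7 CPM without it. Its difference of 0.29 ± 0.09 (edgeR adjusted p = 0.0293) was 0.28 after GC correction and 0.19 without 20% O2 + Doxy replicate 1. The call was kept in 11 of 18 alternative fits, and in 1 of the 6 that left out a library. NDUFB8, a subunit often probed on blots as a sign of assembled complex I, was at 9.05, 9.60 and 10.1 CPM against 10.6, 9.61 and 10.9 CPM. The groups overlapped, with an interval of -0.22 to 0.45, and 85.2% of its coding bases lie in another gene on the same strand.

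NDUFA4 and NDUFA4L2 carry complex I symbols, but NDUFA4 is known to act with cytochrome c oxidase, and NDUFA4L2 is its paralog and a hypoxia-induced target of HIF-1. NDUFA4 was at 126, 134 and 154 CPM with Doxy and 138, 144 and 111 CPM without it, with an interval of -0.35 to 0.20. NDUFA4L2 was rare, at 1.41, 0.833 and 0.764 CPM with Doxy and 2.25, 2.72 and 2.41 CPM without it. All 3 depleted libraries were higher, by 1.29 ± 0.29 or 2.45-fold (edgeR adjusted p = 0.00566), and this was the only member past a 2-fold change. It rested on 21 to 86 counts per library over all conditions.

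Of the 8 assembly factors 1 was called (12.5%, beside 35.3% of all genes) and none was called higher. NDUFAF5, which modifies NDUFS7, was lower by -0.23 ± 0.07 (edgeR adjusted p = 0.0338), at 16.4, 18.0 and 19.1 CPM with Doxy and 14.7, 15.3 and 15.8 CPM without it. The groups did not overlap, but 8 of 18 alternative fits kept the call.

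**Figure D3:**
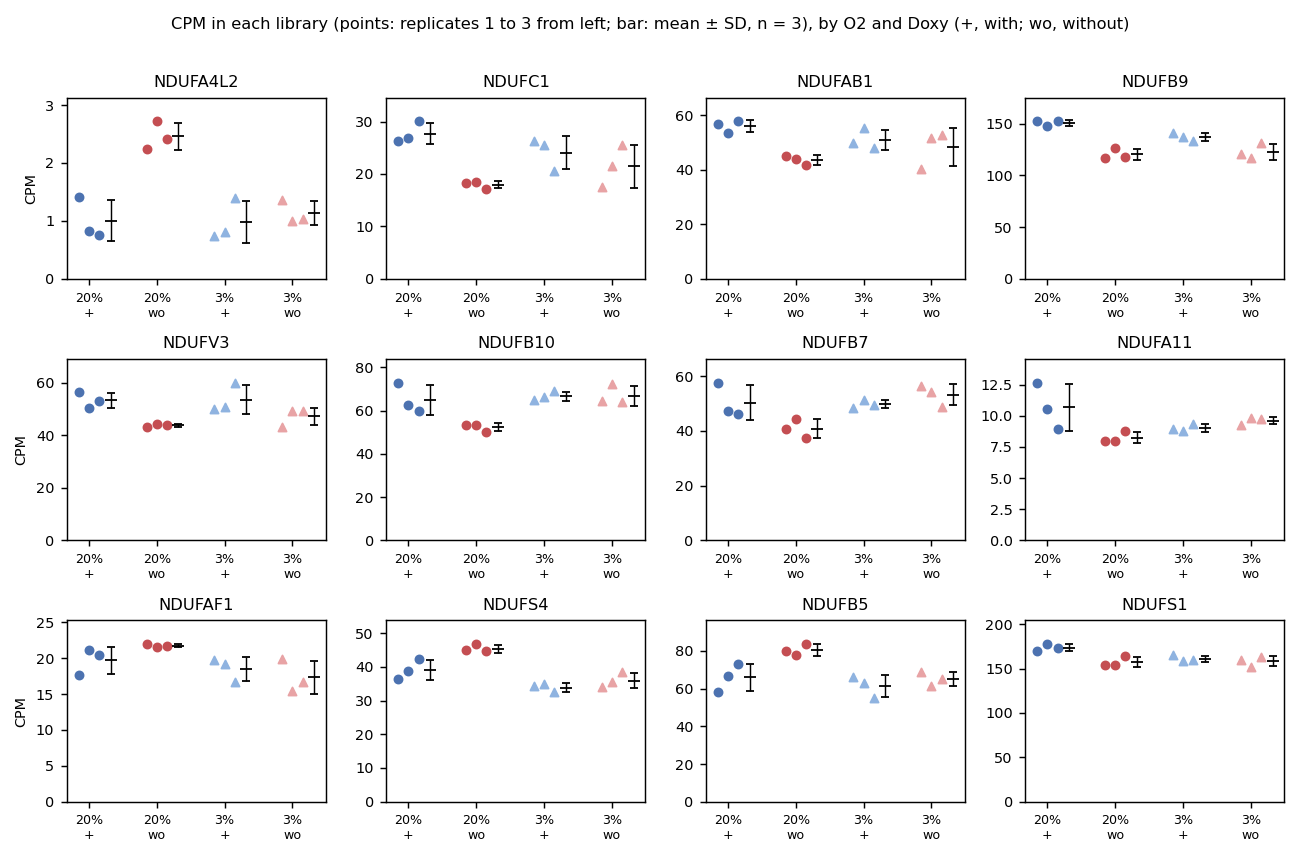
CPM of 12 members in each library (points, replicates 1 to 3 from left to right) with the mean ± SD (bar, n = 3), by O2 and Doxy. NDUFA4L2 stands highest in the 3 libraries of 20% O2 wo Doxy (2.25 to 2.72 CPM), and NDUFC1 lies lower there (17.2 to 18.5 CPM) than in 20% O2 + Doxy (26.3 to 30.0 CPM).

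The second comparison asked the same of FDX2 loss at 3% O2. No member was called in the edgeR fit, beside 7.31% of all genes (4.2% higher and 3.11% lower). An unadjusted edgeR p under 0.05 was found for 4 of 47 members (NDUFB9, NDUFV3, NDUFV2 and NDUFV1), beside 3901 of all 16891 genes. A DESeq2 Wald test called 1 member, NDUFB9. Members ran from -0.37 (NDUFV2) to 0.24 (NDUFA7) with a median of 0.03, and all genes had a median of 0.04. All 47 intervals lay inside a 2-fold change and 43 inside 1.5-fold. Replicates did not overlap for 4 members, beside 24.6% of all genes.

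The members that had fallen at 20% O2 were not called at 3% O2. NDUFB9 was at 141, 137 and 133 CPM with Doxy and 120, 117 and 131 CPM without it, a separation without overlap of -0.16 ± 0.06 (edgeR adjusted p = 0.116). NDUFAB1 was at 49.9, 55.2 and 48.2 CPM against 40.3, 51.9 and 52.8 CPM, and NDUFC1 was at 26.3, 25.5 and 20.5 CPM against 17.4, 21.4 and 25.5 CPM. In both genes the groups overlapped, and the lowest value of each group of NDUFC1 came from a library that stood apart. NDUFA4L2 was at 0.745, 0.802 and 1.39 CPM with Doxy and 1.37, 0.992 and 1.03 CPM without it, also overlapping, with an interval of -0.46 to 0.86.

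The Fe-S subunits overlapped between the groups at 3% O2, and 2 of the 5, NDUFV2 and NDUFV1, had an unadjusted p under 0.05. NDUFV2 was at 3.63, 2.83 and 3.23 CPM with Doxy and 2.33, 2.26 and 2.90 CPM without it, the lowest difference of any member at -0.37 ± 0.14, which was not called (edgeR adjusted p = 0.150). NDUFS1 was at 165, 158 and 159 CPM with Doxy and 160, 152 and 163 CPM without it, and NDUFV1 was at 120, 121 and 141 CPM against 148, 148 and 138 CPM. NDUFS8 was at 52.6, 52.8 and 71.5 CPM against 46.5, 66.9 and 56.2 CPM, and NDUFS7 at 40.2, 44.4 and 53.2 CPM against 42.4, 56.1 and 47.3 CPM. NDUFS8 and NDUFS7 were highest in the libraries most tilted to GC-rich transcripts, 3% O2 + Doxy replicate 3 and 3% O2 wo Doxy replicate 2. The count of 0 at 3% O2 depended on the libraries. GC correction called 2 members (NDUFB5 higher and NDUFS8 lower, 18.1% of all genes), and without the 3 libraries 15 were called, 3 higher and 12 lower, beside 32.6% of all genes. The endothelial marker CDH5 (0.49) and the mesenchymal marker CDH2 (0.26) were also called higher at FDX2 loss in 3% O2, and their part in the members' values was not tested. The fit without the 3 libraries leaves 2 libraries in each 3% O2 condition. Its calls included NDUFAF1 at -0.31, NDUFB6 at -0.25, NDUFB9 at -0.20 and NDUFV1 at 0.20. The rho with GC of the libraries kept was -0.355 and -0.256 with Doxy and 0.703 and 0.357 without it. In this fit GC tilt and FDX2 loss at 3% O2 cannot be told apart.

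The third comparison asked whether 3% O2 changed the members in FDX2-expressing cells. No member was called by edgeR, beside 2.02% of all genes (1.63% higher and 0.385% lower), and DESeq2 also called none. An unadjusted edgeR p under 0.05 was found for 8 of 47 members, beside 2193 of all 16891 genes. The values leaned to one side, with 37 members below 0 and 10 above and a median of -0.10 against -0.00 for all genes. The median was -0.055 without 3% O2 + Doxy replicate 3, a library that stood apart. Of the nuclear genes of complexes II to V, 34 of 38 also lay below 0, with a median of -0.11. The marker PAX8 was called higher (0.86), and its part in the members' values was not tested. The members ran from -0.29 (NDUFB1) to 0.20 (NDUFV2), all 47 intervals lay inside a 2-fold change, and 8 members did not overlap (15.4% of all genes). The 8 with an unadjusted p under 0.05 were all lower, among them NDUFAF4, NDUFAF5 and NDUFAF7 of the assembly factors.

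NDUFS4 was at 36.4, 38.7 and 42.2 CPM at 20% O2 and 34.3, 34.9 and 32.5 CPM at 3% O2, without overlap and with a difference of -0.21 ± 0.07 (edgeR adjusted p = 0.181). NDUFA4L2, for which hypoxic induction is textbook knowledge, was listed with means of 1.00 and 0.979 CPM and an interval of -0.69 to 0.63. GC correction called NDUFAF5 (-0.19, edgeR adjusted p = 0.0401, 7.07% of all genes), and without the 3 libraries NDUFAF4 and NDUFS4 were called lower (5.76% of all genes).

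The fourth comparison asked the same in FDX2-depleted cells. Of 47 members 6 were called, 2 higher and 4 lower, beside 25.8% of all genes (13.9% higher and 11.9% lower). The median was -0.04 for members and 0.07 for all genes, and 11 members did not overlap beside 49.4% of all genes. NDUFA4L2 fell from 2.25, 2.72 and 2.41 CPM at 20% O2 to 1.37, 0.992 and 1.03 CPM at 3% O2. All 3 libraries at 3% O2 were lower, by -1.12 ± 0.29 or 2.17-fold (edgeR adjusted p = 0.0178).

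NDUFS4 was the member called in every alternative fit of this comparison, at 44.9, 46.8 and 44.6 CPM at 20% O2 and 34, 35.4 and 38.4 CPM at 3% O2. The groups were clearly apart, by -0.34 ± 0.07 (edgeR adjusted p = 0.00453). NDUFB5 was at 80.0, 77.7 and 83.7 CPM against 69.1, 61.2 and 64.9 CPM, a difference of -0.31 ± 0.09 (edgeR adjusted p = 0.0294). NDUFAF1, part of the machinery that assembles the membrane arm, was at 22.0, 21.6 and 21.7 CPM against 19.9, 15.5 and 16.7 CPM. It was lower in all 3 libraries, by -0.33 ± 0.10 (edgeR adjusted p = 0.0367). Of the 6 fits that left out a library, 5 lost the call of NDUFAF1, 5 that of NDUFB5 and 3 that of NDUFA4L2.

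The increases were in NDUFB7 and NDUFB10. NDUFB7 was at 40.8, 44.3 and 37.5 CPM at 20% O2 and 56.6, 54.3 and 48.9 CPM at 3% O2, a difference of 0.38 ± 0.09 (edgeR adjusted p = 0.0135). NDUFB10 was at 53.4, 53.5 and 50.1 CPM against 64.5, 72.1 and 63.8 CPM, a difference of 0.35 ± 0.08 (edgeR adjusted p = 0.00799). The replicates overlapped in neither gene, but the GC correction took these differences to -0.00 and 0.10 and ended both calls. With it 8 members were called, all lower (33.1% of all genes), among them the 4 above, NDUFB3, NDUFS7 and NDUFV1.

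Without the 3 libraries that stood apart, 22 members were called in this comparison, 9 higher and 13 lower, beside 46.8% of all genes. All 6 above were among them. GC tilt followed the condition in that fit, with a rho of -0.456 to -0.28 at 20% O2 and of 0.703 and 0.357 at 3% O2. Without any 1 library the count ran from 3 (without 20% O2 wo Doxy replicate 2) to 9 (without 3% O2 wo Doxy replicate 1). Cell type markers also rose in this comparison, namely CDH5 (0.77), the carcinoma markers KRT8 (0.82), PAX8 (0.79) and KRT18 (0.42), and the mesenchymal marker VIM (0.54), and their part in the members' values was not tested. Same-numbered libraries of these 2 conditions correlated at 0.18 to 0.49 in their deviations, and differently numbered ones at -0.47 to 0.23. These ranges overlap, so pairing by number is not shown. With the number as a block 4 members were called, NDUFAF1 and NDUFB5 being lost, beside 19% of all genes, and a blocked fit to the 6 libraries of these conditions called 9, beside 31.1% of all genes.

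**Figure D4:**
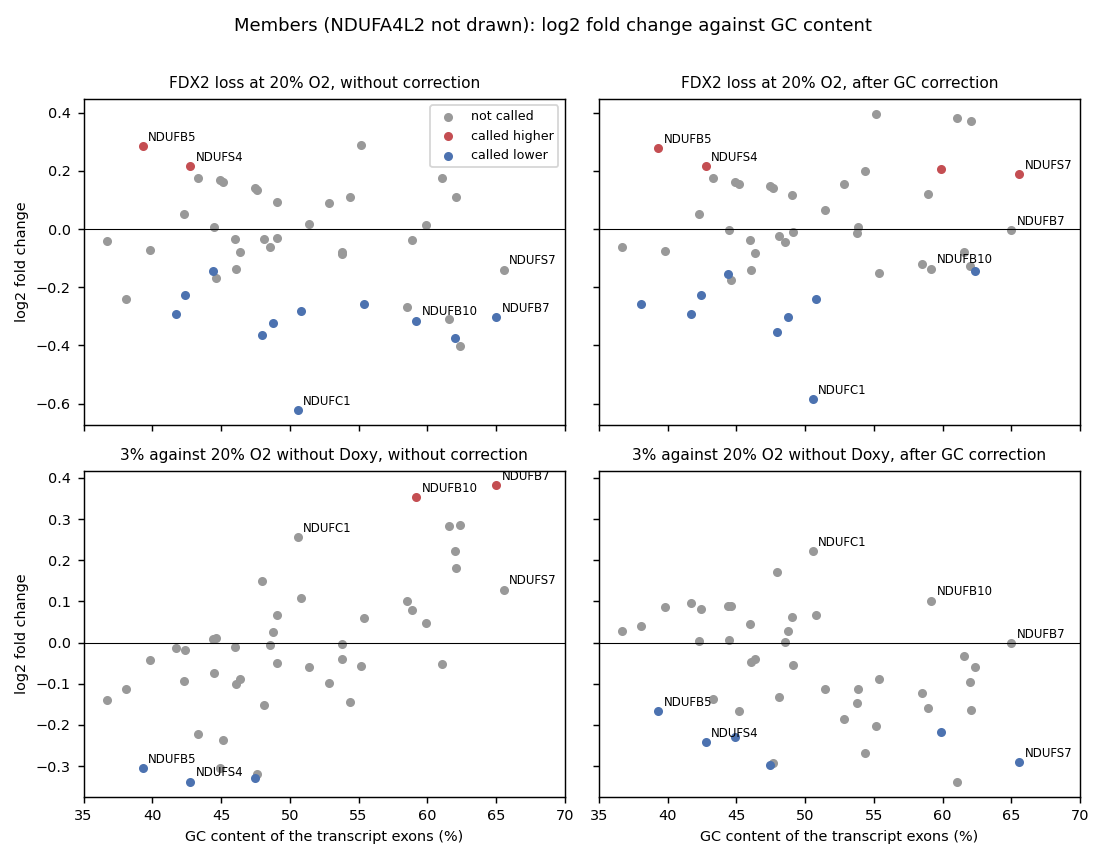
Log2 fold change of 45 members (NDUFA4L2 not among them) against the GC content of their exons (%), for FDX2 loss at 20% O2 (top) and 3% against 20% O2 without Doxy (bottom), without correction (left) and after removal of the GC trend of each library (right). At bottom left the points rise with GC (rho 0.54 over 47 members), and at bottom right NDUFB7 has moved from 0.38 to -0.00.

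The last comparison tested whether the response to FDX2 loss differed between 3% and 20% O2. No member was called, beside 7.29% of all genes (3.21% higher and 4.08% lower), and DESeq2 also called none. An unadjusted edgeR p under 0.05 was found for 6 of 47 members, beside 3956 of all 16891 genes. The 6 were NDUFA4L2, NDUFA11, NDUFB7, NDUFB10, NDUFC1 and NDUFS6. The median difference was 0.07 for members and 0.05 for all genes. NDUFA4L2 had the largest, -1.09 ± 0.42 with an interval of -2.01 to -0.17 (edgeR adjusted p = 0.144). It was called after GC correction, at -1.42 (edgeR adjusted p = 0.0123), and without the 3 libraries, at -1.23 (edgeR adjusted p = 0.0160). GC correction called 4 members, 1 higher and 3 lower (17.8% of all genes). Without the 3 libraries 8 were called, 4 in each direction (27.3% of all genes), among them NDUFC1 at 0.52, NDUFS8 at 0.44 and NDUFAB1 at 0.35. Without these libraries GC tilt cannot be told apart from FDX2 loss at 3% O2. In the fit to all libraries, no difference called at 20% O2 and not at 3% O2 was thus shown to differ between the oxygen levels.

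Related gene lists were read from the fit to all 12 libraries, without GC correction or the other alternatives. Of 14 complex I assembly factors with other names, 3 were called at FDX2 loss in 20% O2 (21.4%, beside 35.3% of all genes). They were TIMMDC1 (0.40), higher, and ACAD9 (-0.45) and TMEM70 (-0.31), lower. Of the 7 mitochondrially encoded subunits 3 were called (42.9%, beside 35.3% of all genes). MT-ND1 rose from a mean of 1155 to 1820 CPM (0.66 ± 0.13) and MT-ND2 from 1350 to 1814 CPM (0.43 ± 0.12), whereas MT-ND6, the one encoded on the other strand, fell from 413 to 253 CPM (-0.71 ± 0.13). Their edgeR adjusted p values were 0.00255, 0.0179 and 0.00150. Of 38 nuclear genes of complexes II to V, 11 were called at 20% O2, 1 higher (SDHC, 0.35) and 10 lower, with a median of -0.09. That is 28.9%, beside 35.3% of all genes. None of these 38 was called for FDX2 loss at 3% O2, beside 7.31% of all genes. There 4 of them had an unadjusted edgeR p under 0.05, beside 3901 of all 16891 genes.

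Of 10 regulators of mitochondrial biogenesis 7 were called at FDX2 loss in 20% O2 (70%, beside 35.3% of all genes). Of these 6 were lower, among them NRF1 (-0.53 ± 0.08) and TFAM (-0.39 ± 0.08), and PPARGC1A was higher (1.53 ± 0.13). NRF1 is a transcription factor known for activating respiratory chain genes. Promoters (250 bases before a RefSeq start, GRCh38.p14) were at hand for 40 of the 48 members. Its consensus motif, searched on either strand, occurred in 5 of 52 member promoters (9.62%), those of NDUFA3, NDUFA9, NDUFA11, NDUFA12 and NDUFB4, and in 5.07% of all 35116 promoters. NDUFA11 was the only one of these 5 called at FDX2 loss in 20% O2, and its promoter (chr19:5903791-5904040, minus strand) is shown with the match in capitals. The match is a description and was not tested as a binding site.
NDUFA11: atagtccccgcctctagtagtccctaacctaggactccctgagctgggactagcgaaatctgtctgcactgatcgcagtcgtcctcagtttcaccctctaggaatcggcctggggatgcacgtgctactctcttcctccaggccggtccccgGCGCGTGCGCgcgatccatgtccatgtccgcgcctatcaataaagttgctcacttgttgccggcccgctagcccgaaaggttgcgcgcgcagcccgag
The hypoxia response core ACGTG was found in 11 of the 52 member promoters (21.2%) and in 18.5% of all promoters. The YY1 motif occurred in 0 of the 52 and in 0.248% of all promoters, and the composite motif of ATF4 with CEBP in 1 of the 52 (1.92%), that of NDUFS6, and in 3.14% of all promoters.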

How the data were processed

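Counts per gene were used as the authors deposited them, 1 table of 58735 Ensembl genes by 12 poly(A) RNA-seq libraries. Per the labels, reads (paired, DNBSEQ-T7) were processed with STAR, featureCounts and DESeq2 on GRCh38. Versions of STAR and featureCounts, the annotation release and strand or multi-overlap settings are not given in the sources used here. Symbols, coordinates, lengths and GC content were taken from GENCODE 29. CPM and TPM were computed from the counts with TMM factors and summed exon lengths, respectively.

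Genes with at least 10 counts in enough libraries (edgeR's filter, total at least 15) were tested in 1 model of 4 conditions over 12 libraries (R 4.3.3, edgeR 4.0.16, quasi-likelihood, Benjamini-Hochberg, adjusted p under 0.05). The common biological coefficient of variation was 16.3%, on 8 residual degrees of freedom. The fit was tested on simulated counts that had no GC tilt and no library that stood apart, so that test does not cover these features. The members, lists and tests were chosen with earlier results of these data known. Named in full were the 5 Fe-S subunits, NDUFAB1, NDUFA4, NDUFA4L2, NDUFB8 and, per comparison, up to 3 called members in each direction at a mean of at least 5 CPM with no overlap. Others named were chosen after their values were seen. The values of 1 member and 1 marker are not reported here. Alternatives were DESeq2 (1.42.0) tests and size factors, other filters and thresholds, compared conditions only, leaving out libraries, pseudogene counts added, overlapped members left out, a replicate block, and a per-library GC trend as an offset (lowess with a span of 0.3, fitted where the mean log2 CPM exceeded 2). Counting error weighs most on NDUFA4L2 (21 to 86 counts per library), NDUFA7 (24 to 47), NDUFV2 (57 to 112) and NDUFA13 (71 to 155). It was not compared with replicate spread member by member.

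All same-numbered libraries correlated above 0.1 in their deviations (0.18 to 0.49) only between 20% O2 wo Doxy and 3% O2 wo Doxy. Differently numbered libraries of these conditions reached 0.23, so pairing is not shown. No 2 replicates agreed within sampling noise (lowest chi-square per gene 2.47).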

Additional observations from a re-analysis of the deposited data

Results flagged for a closer look

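No member showed a response to FDX2 loss that differed between oxygen levels in the fit to all 12 libraries. Among the related lists, the interaction test of edgeR (response at 3% O2 minus response at 20% O2) passed for 5 genes. These were 4 of 38 nuclear genes of complexes II to V and 1 of 10 regulators of mitochondrial biogenesis. It passed for 0 of 14 assembly factors with other names and 0 of 7 mitochondrially encoded subunits. Of all tested genes 7.29% passed, so the lists are not set apart by this count. The 5 genes were not examined after GC correction or in the other alternative fits. Over 11120 expressed genes, rho between this difference and GC content was 0.447. SDHA, the flavoprotein of complex II, differed by 0.39 on the log2 scale (adjusted p = 0.0485), from -0.42 at 20% O2 to -0.04 at 3% O2. UQCRFS1, the Fe-S protein of complex III, differed by 0.33 (adjusted p = 0.0220), from -0.48 to -0.15. The ATP synthase subunits ATP5F1A and ATP5F1B differed by 0.24 and 0.21 (adjusted p = 0.0324 and 0.0410). PPARGC1A, a coactivator of mitochondrial biogenesis, differed by -1.08 (adjusted p = 0.00620), and its mean level rose from 1.48 to 4.30 CPM at 20% O2 and was 2.24 and 3.08 CPM at 3% O2.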

How the results depend on the processing

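Depth limits NDUFA4L2, NDUFV2 and NDUFA7 most, and 3 libraries a condition limit all members. For FDX2 loss at 20% O2, members called numbered 6 at an adjusted p below 0.01, 1 at 2-fold or more, and 8 to 13 without any 1 library, and the median was -0.12 without the 3 libraries that stood apart (chosen after seeing the data) and -0.097 to -0.027 without any 1. At 3% O2, 15 were called without the 3 libraries, 2 with GC correction and 1 by DESeq2's Wald test, with medians of -0.078 without the 3 and -0.039 to 0.046 without any 1. For 3% against 20% O2 with Doxy, 2 were called without the 3 libraries and 1 with GC correction. Without Doxy, 22 were called without the 3 libraries, 10 from the compared conditions alone, 2 at an adjusted p below 0.01, 1 at 2-fold or more, and 3 to 9 without any 1 library. For the difference of responses, 8 were called without the 3 libraries, 4 with GC correction, 0 to 2 without any 1 library (2 without 3% O2 wo Doxy replicate 1), and 2 with the replicate block and GC correction, where the median was 0.012.

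The sign turned for NDUFB7 at 3% against 20% O2 without Doxy (-0.0020 with GC correction, -0.0045 with the block as well) and, for FDX2 loss at 20% O2, for NDUFS7 (0.029 without the 3 libraries, 0.19 with GC correction with or without the block, -0.25 to 0.051 without any 1 library), NDUFV1 (-0.021 with no filter, -0.054 to 0.091 without any 1) and NDUFA4 (-0.17 to 0.010 without any 1). NDUFA4L2 at 3% against 20% O2 with Doxy ran from -0.37 to 0.28 without any 1 library. The cause was not tested.

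All same-numbered libraries deviated together only between 20% and 3% O2 without Doxy, where the block left 4 calls. Pairing is not shown there either, since their lowest correlation (0.18) lay below the highest between different numbers (0.23). In the other comparisons the replicate block gave 11 calls for FDX2 loss at 20% O2 and 0 in each of the rest.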
